A study of Homo sapiens with 4 samples.

Results

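Small nucleolar RNAs (snoRNAs) and the genes that carry them were followed in HaCaT keratinocytes with and without knockdown of the long noncoding RNA lnc-DC. The members were every row named SNORA, SNORD or SCARNA whose mean over the 4 libraries was at least 1 FPKM (fragments scaled to transcript length and library total), with all SNHG genes numbered without a letter, GAS5 and TAF1D. This gave 78 snoRNA rows out of 458 in the table and 27 host genes, 105 members among 58825 rows. The snoRNA rows were chosen by their mean over both groups, so their level is no finding. At the edge of that choice, SNORA12 averaged 1.0, SNORD46 1.0075 and SNORA51 1.01 FPKM just inside, and SNORD67 averaged 0.99, SNORD38A 0.9375 and SNORA22 0.9325 FPKM just outside.

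SnoRNAs are short nuclear RNAs that guide chemical changes of ribosomal RNA. Box C/D snoRNAs (SNORD) direct ribose methylation, box H/ACA snoRNAs (SNORA) direct the change of uridine to pseudouridine, and scaRNAs (SCARNA) do the same for spliceosomal RNAs in Cajal bodies. In human cells most are cut out of introns of a host gene after splicing. Many hosts code for ribosomal proteins or other parts of the translation machinery, and others, the SNHG genes and GAS5, yield a spliced RNA with no known protein.

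HaCaT is an established line of human skin keratinocytes. The knockdown group carried a lentiviral short hairpin against lnc-DC (2 libraries) and the other a control hairpin labelled shNC (2 libraries), all grown in medium with 1.2 mM calcium. The study set out to describe how silencing lnc-DC alters keratinocytes induced to differentiate. The labels name biological replicates without saying whether they were separate transductions, so p-values measure the spread between these libraries, and in bulk RNA a change in the share of cells and a change in RNA per cell cannot be told apart. The targeted transcript, listed as WFDC21P, stood at 0.09 and 0.29 FPKM in the knockdown libraries, against 2.15 and 2.76 FPKM in the control libraries (limma adjusted p = 0.0715). Of 12 keratinocyte markers 10 averaged at least 1 FPKM, while KRT14 and KRT17 did not; the list summed to 478.78 and 501.92 FPKM in the knockdown libraries and 771.75 and 810.65 FPKM in the control libraries. All 5 simple epithelium markers passed that level, with sums of 918.1 and 901.71 FPKM in the knockdown libraries and 1081.21 and 1159.48 FPKM in the control libraries. Among markers of other cell types, 1 of 5 for leukocytes (CD14, up to 3.0 FPKM, with PTPRC at 0) and 1 of 3 for endothelium (CDH5, up to 6.42 FPKM) reached it, and 0 of 7 for fibroblasts and 0 of 4 for melanocytes did. The part of these marker levels in the results was not tested. Mitochondrially encoded transcripts differed between the groups, with 28.07% and 26.82% of all FPKM in the knockdown libraries and 41.23% and 41.89% in the control libraries. Rescaling to nuclear genes left 73 of the 78 snoRNA rows described below above 0.

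The libraries were made from polyadenylated RNA with paired reads of 150 bases and inserts near 300 bases, whereas the snoRNA members are 64 to 272 bases long and 74 of 78 are shorter than 1 read. Mature snoRNAs have no poly(A) tail, so a value here stands for fragments that passed the selection and were assigned to the row, and it may not follow the amount of mature snoRNA. Reads of a host transcript that keeps the intron can cover the row as well. GENCODE 29 places 35 of the 78 rows wholly within introns of a gene on the same strand, 33 wholly inside an exon of at least 1 of its transcripts, 9 partly in such an exon and 1 (SNORA11F) in no gene. In addition, 21 members have another snoRNA row with at least 80% sequence identity, and SNORD62B is identical to SNORD62A, so reads could be split between such copies.

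The sequences of 9 members on which the results turn are given from GENCODE 29 (GRCh38), with the conserved boxes in capitals. Boxes were read on the RNA strand only. In SNORD rows the letters TGATGA (C box) were sought in the first 15 bases and CTGA (D box) in the last 15, and in SNORA rows ACA in the last 8. TGATGA was found in 55.8% of the 43 box C/D members, in 64.3% of all SNORD rows and in 0.667% of all SNORA rows over the same window. CTGA was found in 90.7% of those members, in 92.2% of all SNORD rows and in 3.33% of all SNORA rows. ACA was found in 90.9% of the 33 box H/ACA members, in 90.7% of all SNORA rows and in 5.3% of all SNORD rows. Of the rows inside TAF1D, 3 on the minus strand of chromosome 11 are shown first because SNORD5 was lower in the knockdown while the other two were higher.
SNORA8: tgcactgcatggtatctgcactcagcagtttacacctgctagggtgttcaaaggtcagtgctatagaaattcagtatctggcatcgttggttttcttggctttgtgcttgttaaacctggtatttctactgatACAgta
SNORD5: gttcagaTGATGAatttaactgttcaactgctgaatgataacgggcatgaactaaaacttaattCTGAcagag
SNORD6: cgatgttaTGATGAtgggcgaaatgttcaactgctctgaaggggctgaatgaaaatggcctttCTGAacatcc
These lie at chr11:93732361-93732499, chr11:93733228-93733300 and chr11:93731502-93731574. The neighbours inside SNHG1, also on the minus strand, at chr11:62855292-62855366 and chr11:62855012-62855083, are shown because one was steady between replicates and the other was not.
SNORD26: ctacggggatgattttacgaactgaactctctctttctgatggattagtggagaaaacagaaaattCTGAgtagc
SNORD27: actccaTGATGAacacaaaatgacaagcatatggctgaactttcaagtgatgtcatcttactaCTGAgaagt
The pair inside RPL17 is shown because it holds the row with the highest value, SNORD58B. SNORD58A and SNORD58B lie on the minus strand at chr18:49491283-49491347 and chr18:49491664-49491729 and differ by 14 edits (78.8% identity).
SNORD58A: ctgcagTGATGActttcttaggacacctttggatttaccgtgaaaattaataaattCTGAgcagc
SNORD58B: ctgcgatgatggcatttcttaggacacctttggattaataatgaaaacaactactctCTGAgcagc
SNORA58B (chr1:154259727-154259862, plus strand) and SNORA14B (chr1:235127803-235127937, minus strand) are the box H/ACA members that passed the test.
SNORA58B: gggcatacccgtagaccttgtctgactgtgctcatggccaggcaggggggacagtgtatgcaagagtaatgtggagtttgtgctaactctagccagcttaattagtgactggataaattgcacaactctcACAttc
SNORA14B: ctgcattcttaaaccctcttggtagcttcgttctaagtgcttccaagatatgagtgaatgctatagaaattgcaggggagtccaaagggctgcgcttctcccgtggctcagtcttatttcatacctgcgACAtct

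Most snoRNA rows were higher in the knockdown libraries. On the log2(FPKM + 1) scale, on which every difference below is knockdown minus control, 73 of 78 snoRNA members lay above 0, against 61.4% of all 12411 genes tested. Their median difference was 0.73 (quartiles 0.46 and 1.03) and their median ratio of mean FPKM was 1.98, while the median difference over all genes tested was 0.09. Both knockdown values exceeded both control values in 44 members (35.6% of all genes tested did so) and lay below them in 3 (19.2% of all genes tested). Rows that entered through a high value in 1 library or group had to vary, so these counts describe the members and support nothing further.

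Few single rows passed the test across all genes. With limma and Benjamini-Hochberg adjustment over all genes tested, at a threshold of 0.05, 2 snoRNA members rose and 1 fell (0.113% of all genes tested rose and 0.137% fell). At an unadjusted p under 0.05 there were 35 members higher and 1 lower, beside 14.8% and 8.0% of all genes tested. Leaving out any single library (4 refits) removed all of these calls. The median difference of the snoRNA members ranged from 0.64, without knockdown replicate 1, to 0.99, without knockdown replicate 2. Knockdown replicate 1 exceeded knockdown replicate 2 in 56 of the 78 members, and control replicate 1 exceeded control replicate 2 in 35. Over all 12411 genes tested these counts were 7272 and 7300. Most members stayed above 0 without knockdown replicate 1 (66 of the 75 tested) and without knockdown replicate 2 (67 of the 74 tested).

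**Figure D1:**
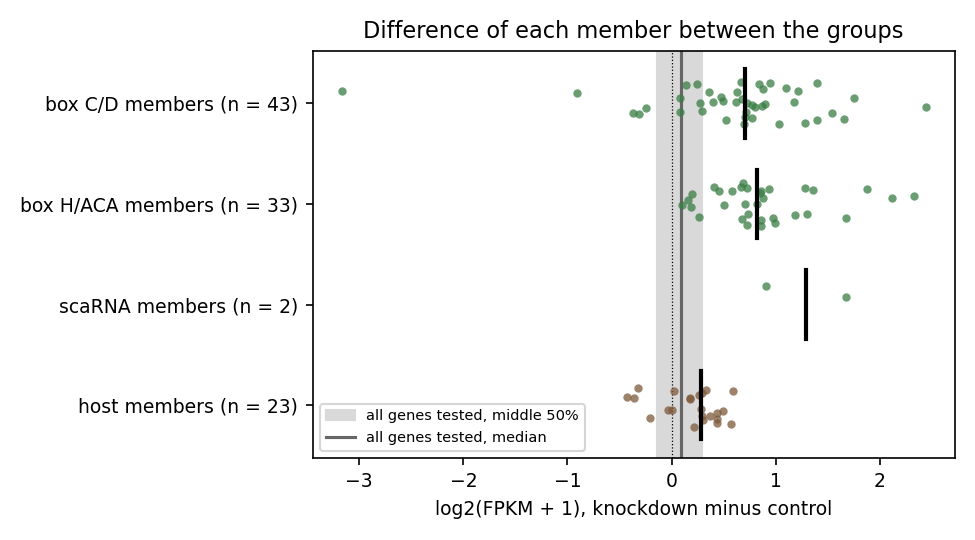
Difference in log2(FPKM + 1), knockdown minus control, for each tested member; points are genes, black bars are class medians, and the grey band and line are the middle 50% and median of all genes tested. The 33 box H/ACA points all lie above 0, and 1 box C/D point, SNORD5, lies near -3.17.

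All 33 box H/ACA rows lay above 0, with a median of 0.82, and in 20 both knockdown values exceeded both control values (35.6% of all genes tested did so). All 33 were also above 0 under median centring, quantile normalization and rescaled nuclear genes, and 32 were with a smaller pseudocount of 0.1. There were 29 of 33 above 0 without control replicate 1, 31 of 33 without control replicate 2, 31 of 31 without knockdown replicate 1 and 31 of 32 without knockdown replicate 2. SNORA58B, inside UBAP2L, had 9.03 and 10.15 FPKM in the knockdown libraries, against 1.35 and 0.88 FPKM in the control libraries. It rose 8.60-fold, with a difference of 2.33 (SE 0.162, limma adjusted p = 0.0362). SNORA14B, in an intron of TOMM20, had 4.21 and 4.80 FPKM in the knockdown libraries and 0.38 and 0.63 FPKM in the control libraries, an 8.92-fold rise (difference 1.87, SE 0.160, limma adjusted p = 0.0495). This call was lost under median centring, quantile normalization, rescaled nuclear genes and the smaller pseudocount, with adjusted p from 0.0506 to 0.0564. SNORA77B, described next, passed under median centring (adjusted p = 0.0493) and quantile normalization (adjusted p = 0.0443), so 3 snoRNA members were called there too. All 3 snoRNA calls were lost when no filter on low values was applied. The near copies of these genes, SNORA58 (86.9% identity) and SNORA14A (91.1% identity), stayed at or below 0.9 FPKM in every library.

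No other box H/ACA row reached the threshold in the fit as reported. Of the 33 rows 13 overlapped between groups, and SNORA77B was named for its small p among rows that did not. SNORA77B, inside an exon of RANBP1, stood at 4.95 and 3.24 FPKM in the knockdown libraries and 0.19 and 0.13 FPKM in the control libraries. Its difference was 2.11 (SE 0.213, limma adjusted p = 0.0582). The control values are close to the low values, 0.19 and 0.18 FPKM, of SNORD27, an exonic row described below that jumped between replicates. SNORA18 had 66.23 and 43.93 FPKM in the knockdown libraries and 27.19 and 19.77 FPKM in the control libraries. SNORA8 had 41.15 and 31.38 FPKM in the knockdown libraries and 19.73 and 16.98 FPKM in the control libraries. These are the box H/ACA rows with the highest values, and neither overlapped. SNORA67, inside the gene of the translation initiation helicase EIF4A1, had 37.14 and 16.23 FPKM in the knockdown libraries and 16.35 and 11.12 FPKM in the control libraries, so its groups overlapped. SNORA4, inside EIF4A2, had 22.54 and 17.83 FPKM in the knockdown libraries and 15.98 and 8.80 FPKM in the control libraries, without overlap. SNORA73B, a snoRNA whose yeast relative acts in cleavage of the ribosomal RNA precursor, had 6.28 and 4.58 FPKM in the knockdown libraries and 1.48 and 3.11 FPKM in the control libraries, also without overlap. SNORA41, inside the elongation factor gene EEF1B2, was steady within groups, at 1.94 and 1.95 FPKM in the knockdown libraries and 0.82 and 0.83 FPKM in the control libraries (adjusted p = 0.105).

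Among box C/D rows 38 of 43 lay above 0, with a median of 0.70, and the 1 call was a fall. SNORD69, in an intron of the nucleolar gene GNL3, had 3.79 and 3.25 FPKM in the knockdown libraries and 0.43 and 0.68 FPKM in the control libraries (difference 1.54, SE 0.164, adjusted p = 0.0620). SNORD125, in an intron of AP1B1, had 3.82 and 2.87 FPKM in the knockdown libraries and 0.83 and 0.46 FPKM in the control libraries (difference 1.402, SE 0.200, adjusted p = 0.0747). SNORD101 and SNORD100 lie in introns of the ribosomal protein gene RPS12. SNORD101 had 5.69 and 6.20 FPKM in the knockdown libraries and 2.52 and 3.09 FPKM in the control libraries, and SNORD100 had 1.92 and 1.71 FPKM in the knockdown libraries and 0.48 and 0.16 FPKM in the control libraries. SNORD12C, in an intron of the noncoding host ZFAS1, stood at 1.3 and 2.85 FPKM in the knockdown libraries and 0.18 and 0.26 FPKM in the control libraries. None of these 5 passed the adjusted threshold. SNORD69, SNORD125, SNORD101 and SNORD100 were named for small p-values among rows whose groups do not overlap, so their separation is no finding. SNORD12C did not overlap either. Both knockdown values exceeded both control values in 23 of the 43 box C/D members, beside 35.6% of all genes tested.

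SNORD58B, a guide for methylation of the large ribosomal RNA, had the highest values of the snoRNA members, at 122.92 and 165.44 FPKM in the knockdown libraries and 105.72 and 131.37 FPKM in the control libraries, and its groups overlapped. Its partner SNORD58A had 11.72 and 8.84 FPKM in the knockdown libraries and 6.21 and 4.14 FPKM in the control libraries, without overlap. The 5 members below 0 were all box C/D rows: SNORD5, SNORD36B, SNORD62B, SNORD4B and SNORD14A. The groups of SNORD36B and SNORD14A overlapped. SNORD36B had 0.06 and 2.96 FPKM in the knockdown libraries and 3.38 and 2.39 FPKM in the control libraries. SNORD14A had 5.08 and 2.42 FPKM in the knockdown libraries and 5.6 and 3.4 FPKM in the control libraries. SNORD4B had 2.55 and 3.13 FPKM in the knockdown libraries and 3.53 and 4.0 FPKM in the control libraries. SNORD62B had 2.68 and 2.11 FPKM in the knockdown libraries and 4.14 and 2.74 FPKM in the control libraries. Both were separated between groups by a small margin. Under median centring 37 of the 43 box C/D rows lay above 0.

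Both scaRNA members lay above 0. SCARNA22, in an intron of the histone methyltransferase gene NSD2, had 4.78 and 4.25 FPKM in the knockdown libraries and 0.36 and 1.19 FPKM in the control libraries (difference 1.67, SE 0.262, adjusted p = 0.0824). SCARNA12, at the edge of an exon of PHB2, had 1.55 and 4.23 FPKM in the knockdown libraries and 0.18 and 2.22 FPKM in the control libraries, and its groups overlapped.

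The 5 members inside TAF1D, a subunit of the factor that recruits RNA polymerase I to ribosomal DNA, did not all lie on the same side. TAF1D itself had 22.22 and 19.23 FPKM in the knockdown libraries and 13.74 and 13.40 FPKM in the control libraries (ratio 1.53, difference 0.57, SE 0.119, adjusted p = 0.107). SNORA18 and SNORA8, described above, had ratios of 2.35 and 1.98. SNORD6, the intronic one, had 10.10 and 4.6 FPKM in the knockdown libraries and 4.12 FPKM in both control libraries. SNORD5 fell to 0.25 and 0.19 FPKM in the knockdown libraries, against 11.97 and 8.27 FPKM in the control libraries, 46.0-fold lower (difference -3.17, SE 0.200, limma adjusted p = 0.0362). It lies between SNORA8 and SNORA18, whose values were higher in the same libraries. SNORA25 had 0.10 and 6.23 FPKM in the knockdown libraries and 4.52 and 0.09 FPKM in the control libraries, so it was high in 1 library of each group. The other 3 snoRNA rows inside TAF1D, the non-members SNORA1, SNORA32 and SNORA40, stayed at 0.19 FPKM or less throughout, close to the level of SNORD5 in the knockdown libraries and to the low values of SNORA25.

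**Figure D2:**
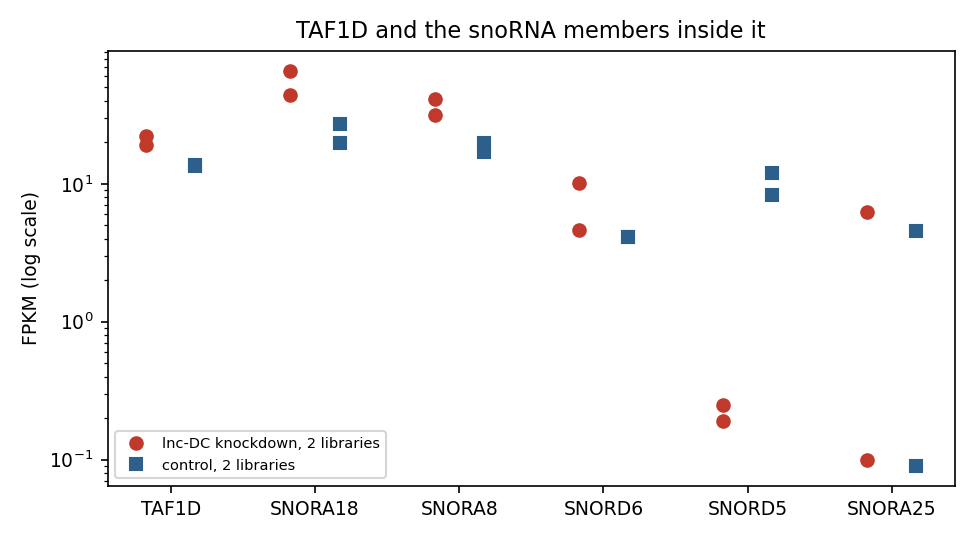
FPKM on a log scale of TAF1D and the 5 snoRNA members inside it, with 1 point per library. SNORD5 lies at 0.25 and 0.19 in the knockdown libraries, while SNORA25 has 1 library near 0.1 in each group.

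Such jumps occurred in other rows that lie inside host exons. Among the 33 exonic rows 11 (33.3%) differed at least 10-fold between the 2 libraries of a group, against 1 of 35 intronic rows, 2 of 9 partly exonic rows and 1.35% of all genes tested. Other short RNAs tested had similar shares, with 33.3% of 15 snRNA, 35.5% of 31 misc_RNA and 33.9% of 59 miRNA genes. Jumps were thus not particular to exonic snoRNA rows. SNORD65, inside SNHG29, had 12.88 and 0.08 FPKM in the knockdown libraries and 8.24 and 0.08 FPKM in the control libraries. SNORD27 had 0.19 and 19.00 FPKM in the knockdown libraries and 0.18 and 6.73 FPKM in the control libraries. Its neighbour SNORD26 was steady, with 24.23 and 23.81 FPKM in the knockdown libraries and 5.96 and 8.01 FPKM in the control libraries (difference 1.66, SE 0.158, adjusted p = 0.0533). SNORD14D, inside the chaperone gene HSPA8 and related to a box C/D snoRNA that yeast needs for processing of ribosomal RNA, had 17.15 and 12.57 FPKM in the knockdown libraries and 0.07 and 6.81 FPKM in the control libraries. Over all exonic rows 21 of 132 library values were under 0.3 FPKM, against 6 of 140 in the intronic rows.

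The replicate spread of the snoRNA rows was wide at their level. The median absolute log2 difference between the 2 libraries of a group was 0.50 in the knockdown and 0.45 in the control, against 0.16 and 0.18 over all genes tested. The 3779 other tested genes with means between 1.86 and 5.34 FPKM, the quartiles of the snoRNA members, had 0.16 in the knockdown and 0.18 in the control. In the 238 other tested genes under 300 bases it was 0.43 and 0.40, so a wide spread was not particular to snoRNA rows. The intronic rows, of which 1 jumped at least 10-fold, had a median difference of 0.73, with 33 of 35 above 0, and in 22 both knockdown values exceeded both control values (35.6% of all genes tested). Without the 14 rows that jumped, the remaining 64 members had a median of 0.73, with 60 above 0.

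**Figure D3:**
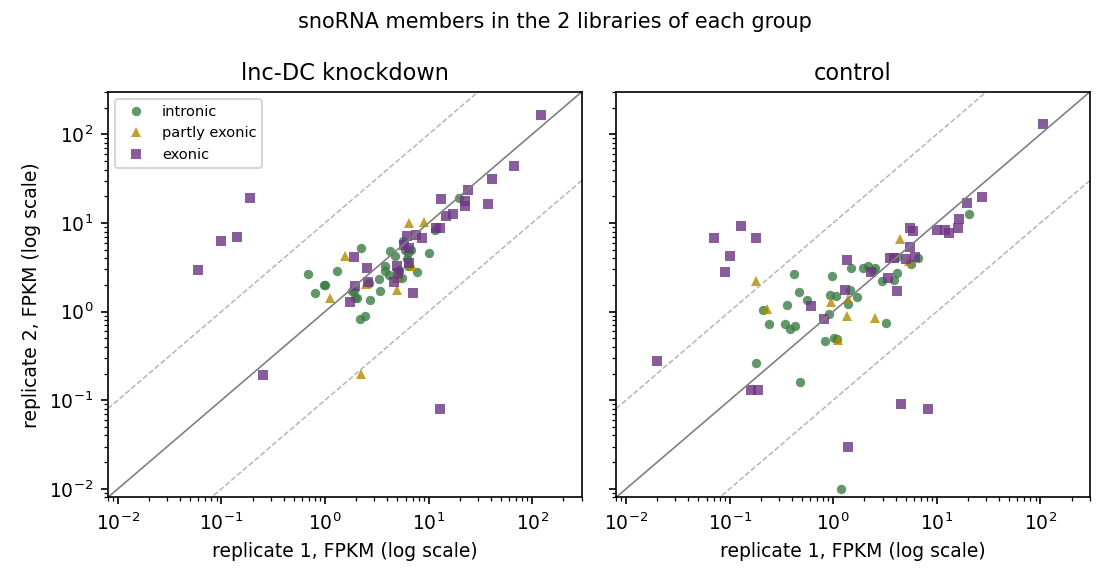
FPKM of the snoRNA members inside a gene in replicate 2 against replicate 1, on log scales, for the knockdown (left) and the control (right); the solid line marks equal values and the dashed lines a 10-fold difference. Points far outside the dashed lines are mostly exonic rows, such as SNORD65 at 12.88 and 0.08 FPKM in the knockdown.

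None of the SNHG genes, GAS5 and TAF1D passed the adjusted threshold. Of 27 host members 23 passed the filter of a mean of at least 1 FPKM in 1 group. SNHG22 did not exceed 0.07 FPKM, and SNHG14, SNHG27 and SNHG28 were listed at 0 in all 4 libraries. The 79 snoRNA rows inside SNHG14 were also listed at 0. The threshold was passed by 0.25% of all genes tested. At an unadjusted p under 0.05 limma gave 4 of 23 higher and 1 lower, beside 14.8% and 8.0% of all genes tested. The median difference was 0.28, with 18 of 23 above 0; it was 0.15 without knockdown replicate 1, and 16 of 23 lay above 0 under median centring, quantile normalization or rescaled nuclear genes. The groups did not overlap in 13 of them, 10 higher and 3 lower, beside 54.8% of all genes tested in either direction.

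The host members with the clearest separation were SNHG1 and TAF1D. SNHG1 had 19.97 and 18.25 FPKM in the knockdown libraries and 11.33 and 13.48 FPKM in the control libraries (ratio 1.54, adjusted p = 0.113). SNHG7, host of SNORA17B, had 14.36 and 10.55 FPKM in the knockdown libraries and 8.49 and 8.39 FPKM in the control libraries (ratio 1.48, adjusted p = 0.185). SNHG15, SNHG17, SNHG21, SNHG26, SNHG11, SNHG3 and SNHG12 were likewise higher in both knockdown libraries than in both control libraries, with ratios of 1.20 to 1.57 and adjusted p from 0.213 to 0.497. The 3 hosts whose knockdown libraries both lay under the control libraries were SNHG18, SNHG6 and GAS5. SNHG18 had 5.38 and 5.30 FPKM in the knockdown libraries and 7.15 and 7.96 FPKM in the control libraries (difference -0.43, SE 0.114, adjusted p = 0.136). SNHG6 had 42.88 and 38.39 FPKM in the knockdown libraries and 45.04 and 57.92 FPKM in the control libraries. GAS5, a noncoding RNA that accumulates in growth arrest, had 20.80 and 20.35 FPKM in the knockdown libraries and 21.97 and 25.87 FPKM in the control libraries.

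Several host members did not separate the groups. SNHG29, with the highest level of the host members, had 98.77 and 109.68 FPKM in the knockdown libraries and 96.67 and 108.72 FPKM in the control libraries, so both groups spanned the same range. SNHG8 had 27.40 and 30.14 FPKM in the knockdown libraries and 22.16 and 28.69 FPKM in the control libraries. SNHG5 had 25.35 and 30.82 FPKM in the knockdown libraries and 19.85 and 25.88 FPKM in the control libraries. The groups of these genes overlapped, as did those of SNHG4, SNHG9, SNHG10, SNHG16, SNHG19, SNHG20 and SNHG25. SNHG20 reached the filter through 1 control library, with 0.47 and 0.50 FPKM in the knockdown libraries and 1.65 and 0.38 FPKM in the control libraries.

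**Figure D4:**
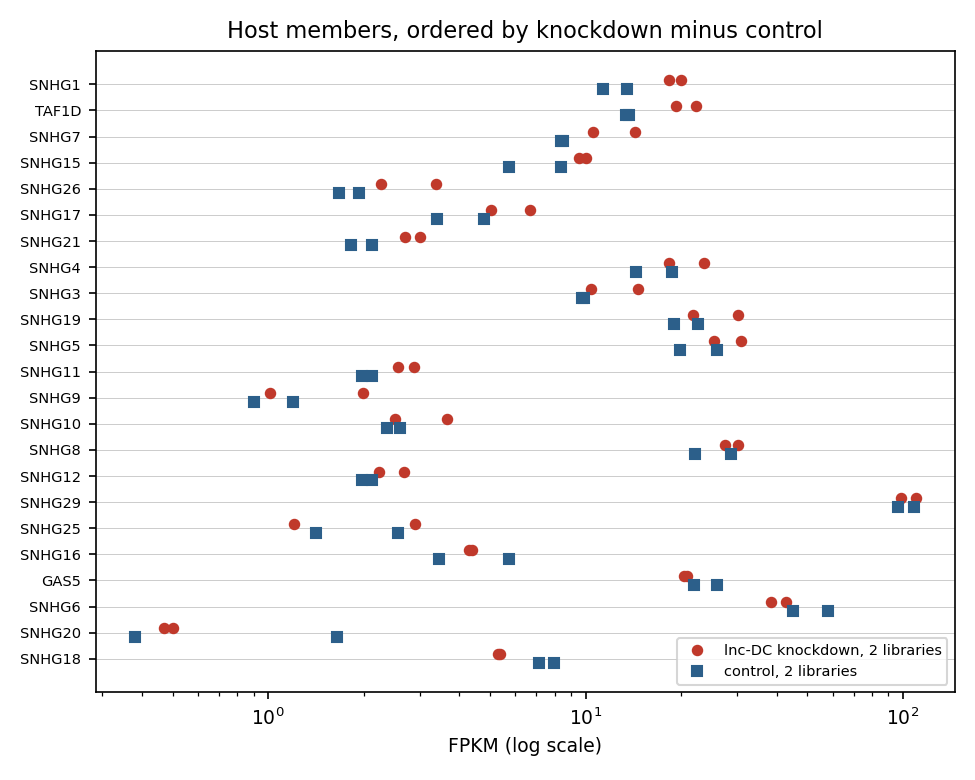
FPKM on a log scale of the 23 host members that passed the filter, with 1 point per library, ordered by the difference of knockdown minus control from the top. SNHG1 and TAF1D at the top have both knockdown points right of both control points, and SNHG18 at the bottom has them on the left.

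Each snoRNA row was then set beside the gene that contains it. The 77 pairs involve 54 containing genes, so rows in 1 gene share their source. In 64 pairs the snoRNA row had the larger difference. The median difference was 0.73 for the snoRNA rows and 0.10 for the containing genes, of which none passed the adjusted threshold. In 20 pairs the row lay above 0 while its gene lay below. Across the pairs the differences had a Spearman rho of 0.178, a weak relation given as a description.

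Rows inside ribosomal protein genes mostly lay above 0, while the genes themselves mostly lay slightly below and overlapped between groups. The 15 genes with names starting RPL or RPS that hold members had a median difference of -0.09 with 11 below 0. The groups overlapped in 12 of them, and in 3 both knockdown values lay below both control values (19.2% of all genes tested). Of their 22 snoRNA rows 19 lay above 0 with a median of 0.69. RPS12 had 462.59 and 524.74 FPKM in the knockdown libraries and 435.51 and 574.50 FPKM in the control libraries, and its groups overlapped. Its rows SNORD100, SNORD101 and SNORA33 did not overlap. SNORD100 and SNORD101 were named among rows without overlap, so their separation beside RPS12 is no finding. RPL12, with the lowest difference of the 15 genes (-0.73), had 240.12 and 286.11 FPKM in the knockdown libraries and 382.51 and 498.96 FPKM in the control libraries. Its intronic row SNORA65 had 5.24 and 2.86 FPKM in the knockdown libraries and 2.18 and 3.29 FPKM in the control libraries, with overlap. RPL17 had 176.21 and 210.76 FPKM in the knockdown libraries and 184.38 and 256.30 FPKM in the control libraries, with overlap. Its row SNORD58A had a ratio of 1.99. Among the 20 rows paired with SNHG genes or TAF1D, 19 lay above 0, as did 9 of the 10 genes. SNORA73B lies inside SNHG3 as well but was paired with RCC1, the containing gene of higher mean FPKM. SNORD87 had 13.15 and 18.49 FPKM in the knockdown libraries and 10.06 and 8.23 FPKM in the control libraries, while its host SNHG6 lay in the opposite direction. HSPA8 was itself 2.20-fold higher (adjusted p = 0.0954), and its 3 rows SNORD14C, SNORD14D and SNORD14E had ratios of 20.0, 4.32 and 2.83, the first against control values of 0.02 and 0.28 FPKM.

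**Figure D5:**
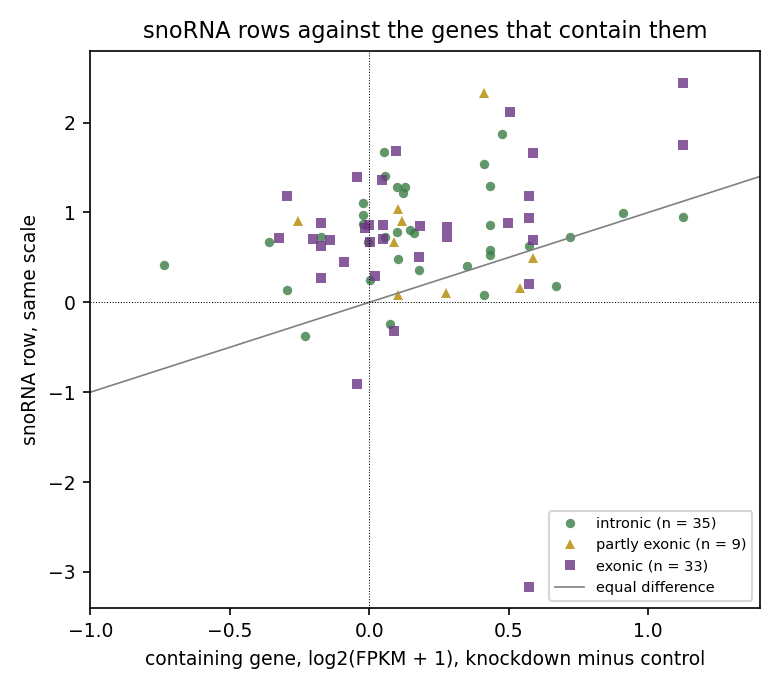
Difference in log2(FPKM + 1) of each snoRNA row against that of the gene that contains it, both knockdown minus control; colours give the position of the row in the gene, and the line marks equal differences. Most points lie above the line (64 of 77), and the lowest point is SNORD5 in TAF1D.

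Of 8 tested genes for core proteins of snoRNA particles, 7 lay above 0 (61.4% of all genes tested did) and none passed the adjusted threshold. NOP58, a core protein of box C/D particles, had 37.59 and 40.53 FPKM in the knockdown libraries and 25.84 and 26.94 FPKM in the control libraries (ratio 1.48, adjusted p = 0.1005). NOP56, its partner and the host of SNORA51, had 41.41 and 43.72 FPKM in the knockdown libraries and 31.15 and 26.88 FPKM in the control libraries. The methyltransferase FBL had 88.18 and 96.75 FPKM in the knockdown libraries and 76.32 and 83.07 FPKM in the control libraries. These 3 did not overlap between groups. SNU13 did, with 13.19 and 12.92 FPKM in the knockdown libraries and 17.96 and 10.45 FPKM in the control libraries. Of the 4 box H/ACA proteins GAR1, the pseudouridine synthase DKC1 and NHP2 did not overlap and NOP10 did, so that 6 of the 8 genes had both knockdown values above both control values, beside 35.6% of all genes tested. DKC1 had 39.52 and 45.43 FPKM in the knockdown libraries and 29 and 30.97 FPKM in the control libraries (ratio 1.42, adjusted p = 0.124). The median differences were 0.38 for the 4 box C/D proteins and 0.33 for the 4 box H/ACA proteins, beside 0.09 over all genes tested.

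No assembly or Cajal body factor passed the adjusted threshold, which 0.25% of all genes tested passed. Over all genes tested 61.4% lay above 0, with a median difference of 0.09. Of 15 tested assembly and transport factors 13 lay above 0 with a median of 0.37, among them the dyskerin chaperone SHQ1 (4.73 FPKM in both knockdown libraries, 2.85 and 3.10 FPKM in the control libraries, adjusted p = 0.112), HSP90AA1 and RPAP3. Of 7 Cajal body and SMN complex genes 6 lay above 0 with a median of 0.39. GEMIN4 had 18.48 and 16.99 FPKM in the knockdown libraries and 10.06 and 8.93 FPKM in the control libraries (difference 0.84, SE 0.118, adjusted p = 0.0747), GEMIN5 had a ratio of 1.56, and the Cajal body scaffold COIL had a ratio of 1.34. PIH1D1, RUVBL2 and DDX20 lay below 0, with differences of -0.20, -0.03 and -0.01.

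Summed over all 458 snoRNA and scaRNA rows, irrespective of level, the FPKM was 760.49 and 676.42 in the knockdown libraries and 429.0 and 418.18 in the control libraries. The ratio of the means was 1.70, and it was 1.88 without SNORD58B, the row with the highest value. With 2 libraries against 2 the two-sided exact permutation test gave p = 0.333, the smallest it can give. Box H/ACA rows summed to 351.46 and 248.45 FPKM in the knockdown libraries and 149.3 and 137.38 FPKM in the control libraries. The 27 host members summed to 384.81 and 370.12 FPKM in the knockdown libraries and 327.5 and 364.11 FPKM in the control libraries, a ratio of 1.09. All rows of the table summed to 271297 and 274976 FPKM in the knockdown libraries and 319780 and 338424 FPKM in the control libraries. That ratio was 0.83, and it was 1.03 without mitochondrial genes. For the snoRNA rows below a mean of 1 FPKM the ratio of sums was 1.45. Among the 380 rows below the mean of 1 FPKM, 202 were listed at 0 in all 4 libraries, and 119 of the other 178 had the higher mean in the knockdown (66.9%, against 54.0% of all rows of the table above 0 in a library).

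Other short RNAs in the table were measured in the same way. The 238 tested genes under 300 bases that are not snoRNA rows had a median difference of 0.10, with 57.1% above 0 and 26.5% with the knockdown values above the control values. This set takes in mitochondrially encoded genes of that length. The 37 mitochondrially encoded genes tested, of any length, had a median difference of -0.17, with 15 above 0 and 22 below. Their part in the values of the set was not tested. By type the medians were 0.39 for 15 snRNA genes, 0.32 for 59 miRNA genes and 0.14 for 31 misc_RNA genes. Replicate jumps of at least 10-fold were seen in 18.1% of the 238 genes and in 17.9% of the snoRNA members. No test of the difference between these sets was made.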

How the data were processed

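RNA-seq of HaCaT cells was deposited as 1 table with an FPKM value per gene for each of 4 libraries. Per the labels' protocols, polyadenylated RNA was selected with oligo(dT) out of 5 µg total RNA, the second strand was made with dUTP, and pairs of 150 bases were read. Per the submitters' processing notes, the tools include HISAT2 2.0.4, StringTie 1.3.4d and cutadapt 1.9. Neither the build and annotation nor the handling of multiply placed reads was stated (not given in the sources used here). The authors deposited FPKM with 2 decimals, a fold (ratio) of group means and its log2, of which the last 2 were not used. FPKM is relative to the library total, and for transcripts shorter than the reads it depends strongly on how length was treated. There are no counts: at the best depth tried, 33.1% to 37.4% of the low values fell within 0.1 of a whole number, so the depth is unknown.

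All 105 members were found by ID in GENCODE 29 (GRCh38), which gave positions, sequences and, as the containing gene, the same-strand gene of highest mean FPKM. Genes averaging 1 FPKM or more in either group (12411) were fitted as log2(FPKM + 1) by group alone, using limma 3.58.1 under R 4.3.3 with a mean-variance trend. P-values are two-sided and Benjamini-Hochberg adjusted over all of these genes. Differences on this scale understate the change of low genes; ratios are of mean FPKM. The fit was tested on simulated data, and 13 alternatives were run. Members, lists and the rule for named genes (all tested host members; snoRNA rows past the threshold, with the smallest p in each direction, with the highest means, inside host members or at the edge of the rule; up to 3 genes per list) were chosen with earlier results of these data known. The snoRNA rows with the smallest p were taken among those whose groups did not overlap. Others named, such as SNORD14C, SNORA73B, SNU13, PIH1D1, RUVBL2, DDX20 and RPL12, were chosen after their values were seen. There were 0 columns without a sample. Some items are not reported here.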

Additional observations from a re-analysis of the deposited data

How the results depend on the processing

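The number of snoRNA members past the adjusted threshold was 3, and it became 0 with no filter on low values, 0 with the replicate block and 0 to 0 when any 1 library was left out. Over all genes the 31 calls became 58 with a filter of 5 FPKM, 57 under quantile normalization, 0 with no filter, 0 with the replicate block and 0 to 0 when a library was left out; the number of genes with an unadjusted p under 0.05 was 2827 of 12411 in the fit as reported, 3876 of 27624 with no filter, 3791 of 12411 with the block and 1797 to 2251 without a library. The replicate numbers are shared by the groups in the labels, but nothing says that they pair the libraries (replicate 1 deviations correlated at 0.124 over genes). The median over host members lay between 0.153 and 0.310 when a library was left out, lowest without knockdown replicate 1. The median replicate spread of snoRNA rows became 0.608 with a pseudocount of 0.1.

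Of 85 named genes checked, 11 changed sign in at least 1 of 13 alternatives. Other genes named in the text, such as SNU13, RUVBL2 and SNORA11F, were not part of this count. SNORA11F became -0.0419 without control replicate 1. SNHG29 became -0.0583 under median centring, -0.0593 under quantile normalization and -0.0217 on rescaled nuclear genes, and ranged from -0.0623 to 0.11 without a library. SNHG25 became -0.0157 with the smaller pseudocount, -0.0766 under median centring, -0.0229 under quantile normalization and -0.0295 on rescaled nuclear genes. SNORA51 became -0.0057 with the smaller pseudocount. Without a library the ranges were -0.34 to 0.27 for SNHG16, -0.41 to 0.41 for SNHG25, -0.0246 to 0.55 for SNHG9, -1.16 to 1.56 for SNORA25, -0.10 to 0.87 for SNORA51, -0.0820 to 0.58 for SNORD104, -1.34 to 2.73 for SNORD27, -1.55 to 2.13 for SNORD65, -0.0758 to 1.13 for SNORD93 and -0.11 to 0.83 for SNORD99. The cause was not tested.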

Other observations

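Of 17 tested genes for intron debranching, trimming and the nuclear exosome 14 lay above 0, with a median difference of 0.26 on the log2(FPKM + 1) scale, against 0.09 over all genes tested. DBR1, which opens intron lariats so that snoRNAs can be trimmed from them, had 11.01 and 12.58 FPKM in the knockdown libraries and 8.31 and 8.53 FPKM in the control libraries (ratio 1.401, limma adjusted p = 0.138). The exosome nuclease DIS3 had 9.79 and 9.40 FPKM in the knockdown libraries and 7.36 and 6.28 FPKM in the control libraries (adjusted p = 0.147). EXOSC3 had a ratio of 1.396. Genes of nonsense-mediated decay, a pathway that degrades many spliced SNHG and GAS5 transcripts, lay above 0 in 14 of 15 cases with a median of 0.30. For both lists the share above 0 over all genes tested was 61.4%. SMG8 had 10.97 and 12.33 FPKM in the knockdown libraries and 8.17 and 9.23 FPKM in the control libraries (adjusted p = 0.176), and EIF4A3 had a ratio of 1.29. No gene of either list passed the adjusted threshold; at an unadjusted p under 0.05 there were 7 of 17 and 4 of 15 higher and none lower, beside 14.8% higher and 8.0% lower of all genes tested.

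Of 49 tested genes on the list of coding and other hosts, ribosomal protein genes included, 33 lay above 0 (61.4% of all genes tested did) with a median of 0.10, and none passed the adjusted threshold. NAP1L4 had 25.12 and 26.24 FPKM in the knockdown libraries and 16.55 and 16.11 FPKM in the control libraries (ratio 1.57, adjusted p = 0.0853). WDR43, a ribosome biogenesis factor, had 32.82 and 37.17 FPKM in the knockdown libraries and 23.14 and 23.31 FPKM in the control libraries (ratio 1.51, adjusted p = 0.104).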
